A study of Mus musculus with 7 samples.

Results

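The renin-angiotensin system is a hormone cascade that raises blood pressure and retains salt, and 9 of its genes were followed here through 7 tissues of lean C57BL/6 mice. They were chosen by name: the precursor Agt, the proteases Ren1 and Ace, the receptors Agtr1a, Agtr1b, Agtr2 and Mas1, and the peptidases Enpep and Lnpep, 9 of the 50226 gene names in the table. RNA-Seq had been performed, with 1 library each, on 3 fat depots, namely visceral (VAT), subcutaneous (SCAT) and interscapular brown (BAT) adipose tissue, and on liver, kidney, cortex and skeletal muscle. All libraries shared the genotype wt, the age of 36 weeks and the diet NCD, and the study's methods name the substrain C57BL/6N. The sources used here do not say whether a library came from 1 animal or a pool, and the label of the cortex library names no organ. In the study this comparison served to see whether metabolically regulated long noncoding RNAs were enriched in liver. It gave clusters of such noncoding transcripts for each tissue. Levels are FPKM, fragments scaled for transcript length and library size, so that genes can also be set side by side within a library. Because each tissue has 1 library, there is no replicate spread, no difference was tested, and neighbours in an order of tissues cannot be said to differ.

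The cascade begins with angiotensinogen, the product of Agt, a plasma protein that hepatocytes secrete. Renin, which juxtaglomerular cells of the kidney release, cuts a short inactive peptide from it, and angiotensin-converting enzyme trims this to angiotensin II. That hormone acts through type 1 receptors on vessels, adrenal cortex, kidney and brain, while the type 2 receptor and the Mas receptor are known for opposing actions. Aminopeptidases such as the products of Enpep and Lnpep shorten or bind the peptides.

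The members differed in where they were high. A gene was called enriched in a tissue when it had at least 1 FPKM there and its log2(FPKM + 0.1) was at least 2, that is about 4-fold, above each of the other 6 tissues. Of the 9 members, 7 reached 1 FPKM in any tissue, and 3 of these 7 (42.9%) were enriched, against 23.0% of the 19122 named genes that reached 1 FPKM. Agt was the member enriched in liver, where 3.82% of all these genes were enriched. Ren1 was enriched in kidney (background 2.55%) and Mas1 in cortex (background 8.32%). This share rests on 7 genes, and nothing is read from it. The median gap between the highest and the next highest tissue was 1.90 on the log2(FPKM + 0.1) scale over the 7 members. It was 0.72 over the 19122 named genes. Agtr1b and Agtr2 stayed below 1 FPKM in every tissue. In bulk tissue, fewer cells of a type and less RNA per cell cannot be told apart, and this holds for every difference given here.

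**Figure D1:**
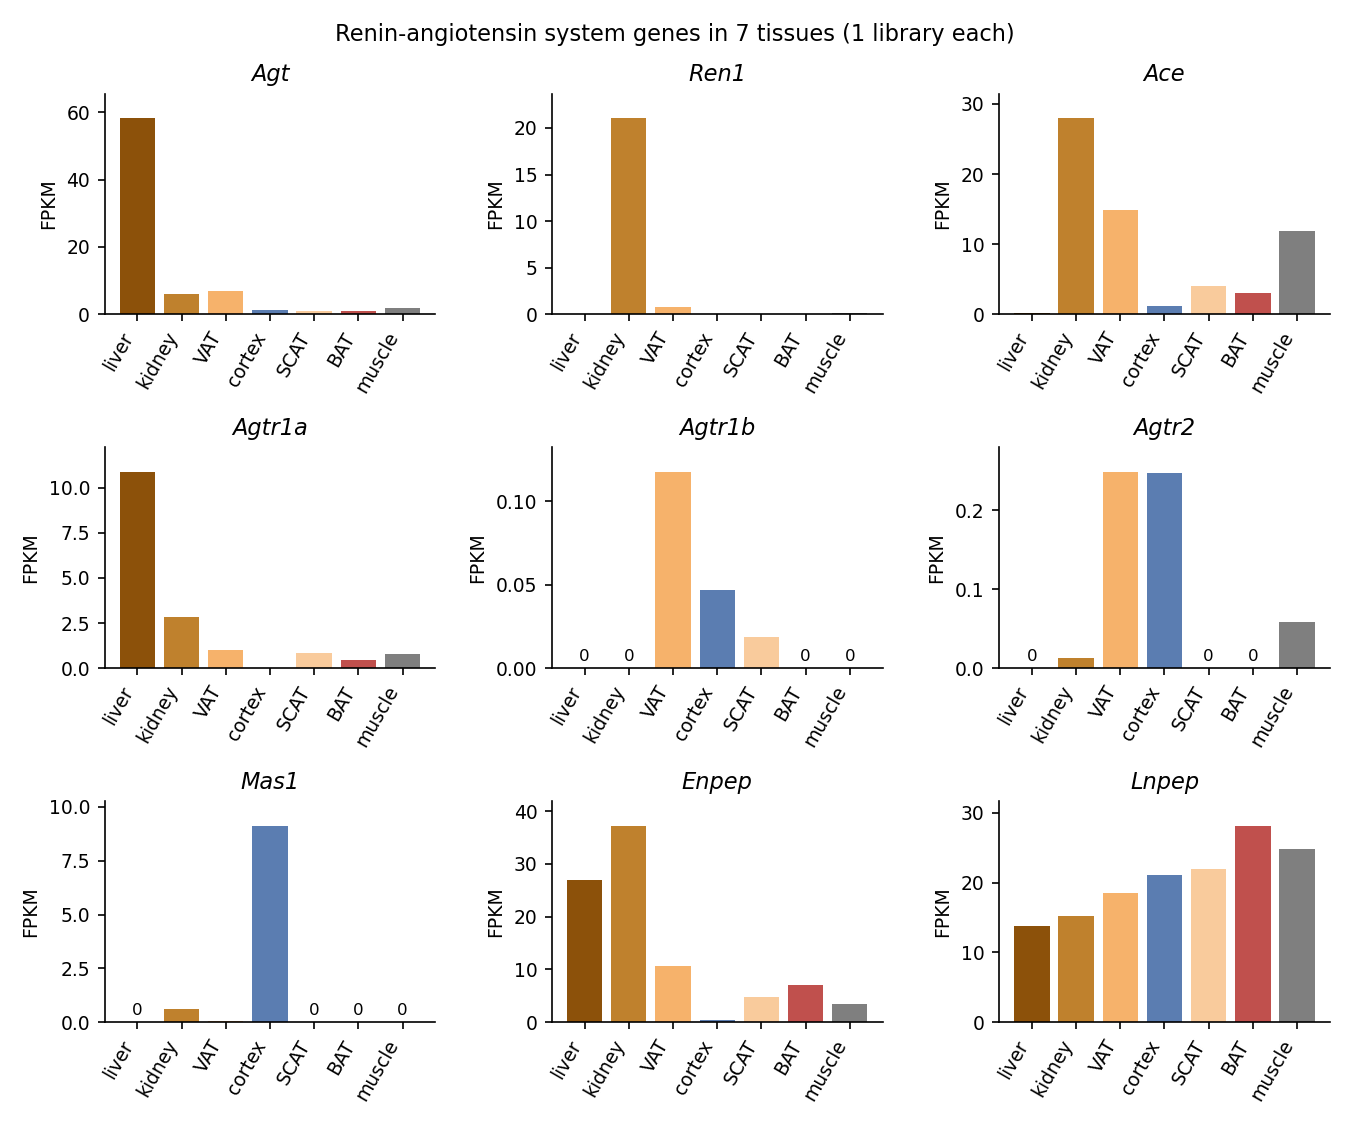
FPKM (linear axis from 0, a separate range for each gene) of the 9 renin-angiotensin system genes in 7 tissues, 1 library each, so the bars carry no error. Agt stood at 58.3 in liver, Ren1 at 21.1 in kidney and Mas1 at 9.11 in cortex, while Lnpep lay between 13.8 and 28.1 in all 7 tissues; a 0 above an axis marks a gene listed at 0.

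The tissues could be recognised by their own genes, with mixtures in some. Nephron markers were highest in kidney, neuronal markers in cortex and the brown fat genes Ucp1 and Cidea in BAT, and 3 of 4 hepatocyte markers had 1717 to 3530 FPKM in liver, while Alb had no estimate there. The VAT library also held epididymal transcripts, with 134 to 1386 FPKM for the 3 markers Adam7, Lcn5 and Crisp1, the last at a locus shared with Crisp3. The BAT library held muscle transcripts, with 166.0 FPKM for Ckm. The SCAT library held lymphocyte markers at 3.396 to 50.6 FPKM and the pancreatic markers Ctrb1 at 35.9 and Cpa1 at 29.9 FPKM. Cela1, also in the pancreatic list, had 11.5 FPKM in SCAT, 8.55 in kidney and 5.99 in liver. The libraries also differed in scale. Over the 8881 genes with at least 1 FPKM in all 7 tissues, the median log2 ratio to the geometric mean was highest in muscle (0.38) and BAT (0.27), near 0 in liver (0.09) and kidney (0.04), and lowest in cortex (-0.19), VAT (-0.42) and SCAT (-0.49). Dividing each library by this factor is called scaling below.

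Agt, at chr8:124556534-124569706 on the minus strand (GRCm38), encodes the only known precursor of the angiotensin peptides. Its level was 58.3 FPKM in liver, 7.05 in VAT, 6.04 in kidney, 1.86 in muscle, 1.25 in cortex, 0.928 in BAT and 0.881 in SCAT. Liver stood 8.27-fold above VAT, the next tissue, which is 3.03 on the log2(FPKM + 0.1) scale, and it held 76.4% of the sum of the 7 levels. With scaling this gap was 2.53, and without the VAT library it was 3.25. Ranked among all names of the liver library, Agt was 1099th. In VAT, the hepatocyte markers Apoa1, Ttr and Serpina1a stood at 0.701%, 0.850% and 0.602% of their liver levels, and Agt at 12.1%. The fourth marker, Alb, has no liver estimate to compare with, and it had 252.7 FPKM in VAT, 7.003 in SCAT and 5.22 in kidney. Whether hepatocyte transcripts in the VAT library have a part in its Agt level was not tested. In kidney, the level of Agt was 10.4% of that in liver. Adipocytes and the proximal tubule are also known to transcribe Agt, but BAT and SCAT were the lowest tissues here. Astrocytes make it in brain. Of the 3 astrocyte markers, Gfap had 91.5 FPKM in cortex and at most 0.494 elsewhere, Aqp4 had 31.4 in cortex and 20.4 in kidney, and Aldh1l1 had 8.04 in cortex and 144.4 in liver. The table gave Agt a single locus, whose bounds also take in Cog2 on the opposite strand, which had 3.58 FPKM in SCAT to 10.5 FPKM in BAT. The bases before the start of Agt are shown because the gene had the largest liver level of the set and its window combines a TATA box sequence with a complete lack of CpG pairs. RefSeq (GRCm38.p6) places them at chr8:124569707-124569806, and they are printed 5′ to 3′ along the gene, with TATAAA and any CG in capitals.
Agt: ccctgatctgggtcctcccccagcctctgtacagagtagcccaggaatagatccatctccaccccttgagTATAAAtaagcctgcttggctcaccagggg

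Ren1, at chr1:133350510-133360325 on the plus strand, encodes renin, the aspartyl protease whose release sets the pace of the cascade. Its level was 21.1 FPKM in kidney, 0.743 in VAT, 0.0877 in muscle, 0.0245 in liver, 0.0196 in BAT, 0.0159 in SCAT and 0.0135 in cortex. Kidney stood alone, 28.4-fold above VAT and 1560-fold above cortex in FPKM, and held 95.9% of the sum. The gap to VAT was 4.65 on the log2(FPKM + 0.1) scale, 4.23 with scaling, and 6.82 without the VAT library, where muscle came next. The VAT level was 3.53% of that in kidney. Proximal tubule markers in VAT stood at 0.00886% (Slc34a1) to 1.90% (Lrp2) of their kidney levels, and distal nephron markers at 0.00693% (Slc12a1) to 0.449% (Aqp2). Of the 5 markers of juxtaglomerular and vascular mural cells, 4 were higher in VAT than in kidney: Akr1b7 (7.44 against 0.477 FPKM), Acta2 (125.8 against 10.7), Rgs5 (23.5 against 8.16) and Myh11 (9.05 against 2.25). Pdgfrb was at 3.71 FPKM in VAT and 4.50 in kidney, an order that turned with scaling (4.96 in VAT and 4.37 in kidney). Whether the mixture in the VAT library has a part in its Ren1 level was not tested. Ranked among all names of the kidney library, Ren1 was 2266th. C57BL/6 mice are known to carry a single renin gene, and Ren2, the duplicate found in other strains, was not listed in the table under that name. RefSeq starts Ren1 downstream of the annotated GENCODE start, so that the bases before the RefSeq start lie in an annotated untranslated exon, and 30 of them, at chr1:133350644-133350673, are shown for the TATAAA they hold (capitals).
Ren1: gTATAAAagaaggctcagggggtctgggct

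Ace, at chr11:105967945-105989964 on the plus strand, encodes the peptidase that forms angiotensin II and degrades bradykinin. It was listed at 28.0 FPKM in kidney, 14.8 in VAT, 11.9 in muscle, 4.04 in SCAT, 3.02 in BAT, 1.15 in cortex and 0.187 in liver. Kidney, VAT and muscle were high and liver was low, with a 149-fold ratio of kidney to liver in FPKM. The gap from kidney to VAT was 0.91 on the log2(FPKM + 0.1) scale, short of the 2 required, and 0.45 with scaling, under which VAT had 19.8 and kidney 27.1. Lung, a tissue known for high Ace, was not among the libraries. Ace is known as an enzyme of capillary endothelium and of the brush border of the proximal tubule. Of the 4 endothelial markers, Pecam1 had 26.6 FPKM in BAT, 25.2 in SCAT, 20.0 in VAT, 14.3 in muscle, 8.01 in kidney, 4.80 in liver and 1.46 in cortex. In sum, the 4 endothelial markers reached 52.2 FPKM in BAT, 40.7 in SCAT, 40.1 in VAT, 36.0 in muscle, 18.6 in kidney, 15.4 in liver and 3.69 in cortex. With scaling this sum was 57.1 in SCAT, 53.5 in VAT, 43.2 in BAT, 27.6 in muscle, 18.0 in kidney, 14.5 in liver and 4.22 in cortex. Kidney, the highest tissue for Ace, came after SCAT, VAT, BAT and muscle for this sum on either scale. The 4 proximal tubule markers summed to 865.7 FPKM in kidney and to 0.844 to 5.66 FPKM in the other tissues. The part of either cell type in the levels of Ace was not tested. Epididymis and testis are further known sites of Ace. Because VAT held epididymal transcripts, its second place for Ace stands beside them, and their part in it was not tested. Gm11651, a gene on the opposite strand within the same bounds, had 6.19 FPKM in kidney and 3.30 in VAT.

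Ace has 2 RefSeq starts, of which the first is known as that of the somatic enzyme and the inner one as that of the shorter testis enzyme. The table gives 1 value over both, so the levels above cannot be divided between them. Their upstream bases are shown because they differ so plainly: CG pairs (capitals) number 19 in the 250 bases before the first start and 1 before the inner start. The first window is chr11:105967848-105967944, cut where an annotated exon begins, and the inner one is chr11:105975089-105975188, both on the plus strand.
Ace, first start: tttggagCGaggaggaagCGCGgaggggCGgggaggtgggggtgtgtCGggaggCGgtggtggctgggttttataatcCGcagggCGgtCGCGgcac
Ace, inner start: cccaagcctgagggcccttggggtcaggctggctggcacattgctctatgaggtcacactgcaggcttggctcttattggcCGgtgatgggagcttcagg

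Agtr1a, at chr13:30336441-30382867 on the plus strand, encodes the main type 1 receptor of rodents, the one that mediates vasoconstriction and aldosterone release. Its level was 10.9 FPKM in liver, 2.84 in kidney, 1.02 in VAT, 0.846 in SCAT, 0.803 in muscle, 0.472 in BAT and 0.0251 in cortex. Liver was 3.82-fold above kidney, and cortex was lowest by a wide margin. The gap from liver to kidney was 1.90 on the log2(FPKM + 0.1) scale, just under the threshold of 2, and 3.29 when the kidney library was left out. The locus used lies on the strand opposite the annotated gene, and on the annotated strand Agtr1a had 8.02 FPKM in liver and 2.07 in kidney, with the same gap of 1.90. So Agtr1a, not enriched with all 7 libraries, would count as liver-enriched without kidney. Within the kidney library Agtr1a was 26.2% of its liver level. Agt and Agtr1a, precursor and receptor, thus shared liver as their highest tissue. No RefSeq window was given for Agtr1a, and none is shown.

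The other receptors were low or, at the locus used, listed above 0 in few libraries. Agtr1b, at chr3:20314473-20367177 on the minus strand, encodes the second type 1 receptor of rodents, known from adrenal cortex and pituitary, which were not sampled. It had 0.118 FPKM in VAT, 0.0470 in cortex and 0.0190 in SCAT, and was listed at 0 in liver, kidney, BAT and muscle. As the coding sequences of both type 1 receptors are much alike, reads could be divided between them in counting, and values this low are uncertain. They are from the locus opposite the annotated strand, and on the annotated strand Agtr1b had 0.0164 FPKM in VAT and in cortex and was listed at 0 elsewhere.

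Agtr2, at chrX:21484544-21489164 on the plus strand, encodes the type 2 receptor, abundant in the fetus and scarce in the adult. It was listed at 0.249 FPKM in VAT, 0.247 in cortex, 0.0584 in muscle and 0.0128 in kidney, and at 0 in liver, SCAT and BAT. These values are from the locus opposite the annotated strand. On the annotated strand Agtr2 had 0.144 FPKM in cortex and 0 elsewhere. Adrenal cortex, a known site of the type 2 receptor, was not sampled, and of the 4 adrenal cortex markers Cyp11b1 and Cyp21a1 were listed at 0 in kidney, while Cyp17a1 had 0.0436 and Star 1.76 FPKM there.

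Mas1, at chr17:12841079-12868143 on the minus strand, encodes the receptor of a shortened angiotensin and is known for its expression in forebrain neurons. Cortex was its highest tissue. It had 9.11 FPKM in cortex, 0.612 in kidney and 0.0642 in VAT and was listed at 0 in liver, SCAT, BAT and muscle. Cortex was 14.9-fold above kidney in FPKM, a gap of 3.69 on the log2(FPKM + 0.1) scale, and held 93.1% of the sum. The gap was 5.81 without the kidney library, which moves it by over 1.5 times, and 3.03 on the annotated strand, where Mas1 had 4.32 FPKM in cortex, 78.7% of the sum, then 0.441 in muscle and at least 0.0851 in each of the others. The kidney level was 6.73% of that in cortex at the locus used, which lies on the strand opposite the annotated gene. On the annotated strand kidney had 0.181 FPKM, beside 0.182 in VAT, 0.186 in SCAT and 0.441 in muscle. The neuronal markers Snap25, Syt1 and Rbfox3 stood in kidney at 0.00552%, 0.0360% and 0.167% of their cortex levels. Whether neuronal transcripts in the kidney library have a part in its Mas1 level was not tested. The bounds of Mas1 in the table, chr17:12682406-13449286, are far wider than the annotated gene and also take in other genes. The bases before its start, chr17:12868144-12868243 along the minus strand, are shown as the third enriched member's; no CG and no TATAAA occur in them.
Mas1: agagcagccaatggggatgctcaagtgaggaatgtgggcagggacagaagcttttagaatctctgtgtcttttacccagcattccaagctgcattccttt

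Both aminopeptidases were among the most abundant members, and their patterns were unlike. Enpep, at chr3:129269175-129332720 on the minus strand, encodes aminopeptidase A, a brush border enzyme that turns angiotensin II into angiotensin III. Its level was 37.2 FPKM in kidney, 27.0 in liver, 10.6 in VAT, 7.12 in BAT, 4.84 in SCAT, 3.43 in muscle and 0.500 in cortex. Kidney and liver were close, with a gap of 0.46 on the log2(FPKM + 0.1) scale, and cortex was 74.4-fold below kidney in FPKM.

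Lnpep, at chr17:17521410-17625050 on the minus strand, encodes the insulin-regulated aminopeptidase, which binds angiotensin IV, cleaves oxytocin and vasopressin and travels with the glucose transporter of fat and muscle. It was the member closest to even across tissues. Its level was 28.1 FPKM in BAT, 24.8 in muscle, 21.9 in SCAT, 21.01 in cortex, 18.4 in VAT, 15.2 in kidney and 13.8 in liver, a 2.04-fold range. Fat and muscle libraries were not separated from cortex in this order. With scaling, the order changed to 30.7 in SCAT, 24.6 in VAT, 24.0 in cortex, 23.2 in BAT, 19.1 in muscle, 14.8 in kidney and 12.9 in liver, so that SCAT and not BAT came first. Liver and kidney were lowest in both. Enpep was 2.44-fold above Lnpep in kidney and 1.96-fold above it in liver in FPKM, and the ratio was 0.576 in VAT, 0.254 in BAT, 0.222 in SCAT, 0.138 in muscle and 0.0238 in cortex.

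**Figure D2:**
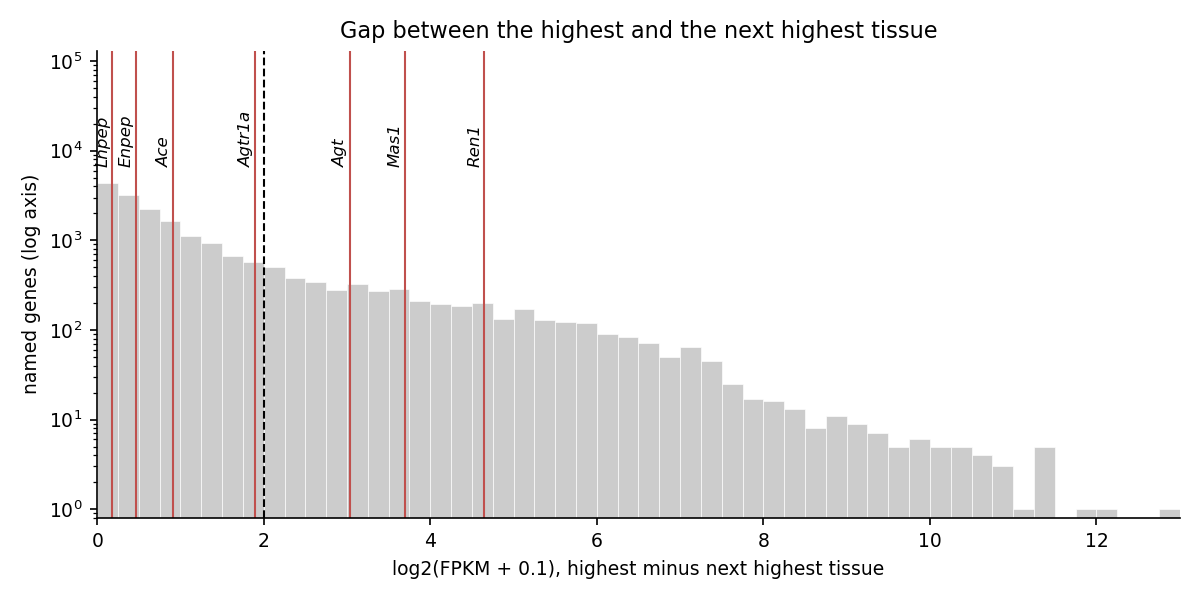
Histogram of the gap between the highest and the next highest tissue on the log2(FPKM + 0.1) scale for 19122 named genes with at least 1 FPKM (grey bars, log axis), with the 7 members that reached 1 FPKM as red lines and the threshold of 2 as a dashed line. Lnpep (0.18), Enpep (0.46), Ace (0.91) and Agtr1a (1.90) lie left of the threshold, and Agt (3.03), Mas1 (3.69) and Ren1 (4.65) to its right.

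Set side by side within a tissue, the members gave each library its own profile. The sum of the 9 levels was 110.9 FPKM in kidney, 110.1 in liver, 53.1 in VAT, 43.0 in muscle, 39.6 in BAT, 33.3 in cortex and 32.5 in SCAT. With scaling SCAT was no longer lowest, and the sums were 107.6 in kidney, 103.3 in liver, 70.9 in VAT, 45.6 in SCAT, 38.1 in cortex, 33.0 in muscle and 32.8 in BAT. Agt made up 53.0% of the sum in liver. Kidney was led by Enpep, with 33.5%, before Ace, with 25.2%. Lnpep led in the other 5 libraries, from 34.7% in VAT to 70.8% in BAT. Second place went to Ace in VAT (27.9%) and muscle (27.7%), to Mas1 in cortex (27.3%) and to Enpep in BAT (18.0%), SCAT (14.9%) and liver (24.5%). Members at 1 FPKM or more numbered 6 in kidney, 5 in VAT, 4 in liver, cortex and muscle, and 3 in SCAT and BAT. With scaling SCAT had 5, and the other counts stayed as they were. The 6 in kidney were Agt, Ren1, Ace, Agtr1a, Enpep and Lnpep, so that the precursor, both enzymes that form angiotensin II and its main receptor were at 1 FPKM or more together there. The ratio of Agt to Ren1 in FPKM was 2383 in liver and 0.287 in kidney, where Ren1 RNA exceeded Agt RNA. These ratios are of RNA and say nothing of the amounts of protein.

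The genes whose patterns were most like each member's were found by Pearson's r on log2(FPKM + 0.1) over the 7 tissues among 13273 protein-coding candidates. With 7 points that share libraries, and often 1 high tissue among them, r is a description. Agt was nearest to Ftcd (0.995), Gc (0.994) and Apoh (0.993). Among the nearest to Ren1 were Bsnd (0.997) and Fam110c (0.994). In VAT, its next tissue as for Ren1, Bsnd had 0.370 FPKM. For Mas1 the nearest were Htr3a (0.999), a serotonin-gated channel, Cpne4 (0.998) and Ankrd34b (0.998), which in kidney had 0.420, 0.744 and 0.585 FPKM. Agtr1a was followed by Slco2a1 (0.991), a prostaglandin transporter, Asap3 (0.985) and Avpr1a (0.982), the vasopressin receptor of liver, which had 7.18 FPKM there. Ift43 (0.989), Il17rd (0.979) and Epb41l4a (0.970) came nearest to Ace, and Naglu (0.995), Selenbp1 (0.984) and Tuba1c (0.980) to Enpep. Lnpep had the lowest values, with Xlr3b (0.968), Iqsec1 (0.965) and Ccdc28b (0.961).

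A further 25 genes that make, cleave, bind or answer to angiotensins were taken as a list. Of these, 24 were in the table and 19 reached 1 FPKM. Enriched were 3 of the 19 (15.8%), against 23.0% of the named genes that reached 1 FPKM. The median gap of the 19 was 0.81 on the log2(FPKM + 0.1) scale.

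Several of the listed genes were highest in kidney. Klk1, tissue kallikrein, which releases kinins, was at 490.3 FPKM in kidney against 2.04 in SCAT, the next tissue, and it was enriched in kidney. Agtrap, which promotes internalisation of the type 1 receptor, had 16.0 FPKM in kidney and 4.51 in BAT. Prcp, a carboxypeptidase that cleaves angiotensin II, had 14.2 FPKM in kidney and 10.2 in SCAT, an order that turned with scaling, to 13.8 in kidney and 14.3 in SCAT. Neither Agtrap nor Prcp passed the rule.

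The listed chymases of mast cells were highest in SCAT. Mcpt4, a chymase of connective tissue mast cells, had 21.9 FPKM in SCAT, 4.96 in muscle, 4.57 in VAT and 1.58 in BAT, and was below 0.1 in liver, kidney and cortex. It was enriched in SCAT, as were 2.67% of the named genes that reached 1 FPKM, but not with a pseudocount of 1 or a log2 threshold of 3. Cma1, another chymase, had 25.9 FPKM in SCAT, 6.85 in both VAT and muscle and 3.20 in BAT, and Cpa3, a mast cell carboxypeptidase, had 15.0 FPKM in SCAT and was enriched only with scaling or a log2 threshold of 1. The mast cell marker Fcer1a, with 2.28 FPKM, was highest in SCAT as well, but Kit was highest in cortex, with 4.54 FPKM. Cpa3 and Mcpt4 are themselves in the mast cell list. The lymphocyte and pancreatic transcripts of the SCAT library stand beside these values, and their part in them was not tested.

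Peptidases that break angiotensins down were spread over tissues. Anpep, aminopeptidase N, had 25.7 FPKM in liver, 14.3 in kidney and 0.113 in cortex. Mme, neprilysin, had 55.8 FPKM in BAT, 27.9 in kidney and 1.51 in cortex. Thop1, thimet oligopeptidase, had 33.3 FPKM in liver and 8.91 in muscle. Atp6ap2, the prorenin receptor and a part of the vacuolar proton pump, was in every tissue, from 13.9 FPKM in SCAT to 79.5 in cortex. Nr3c2, the mineralocorticoid receptor through which aldosterone acts, had 7.75 FPKM in cortex, 4.71 in liver and 1.49 in kidney. The aldosterone synthase gene Cyp11b2 was listed at 0 in all 7 tissues. Ctsd shares its locus with neighbouring names and its value is not its own alone.

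**Figure D3:**
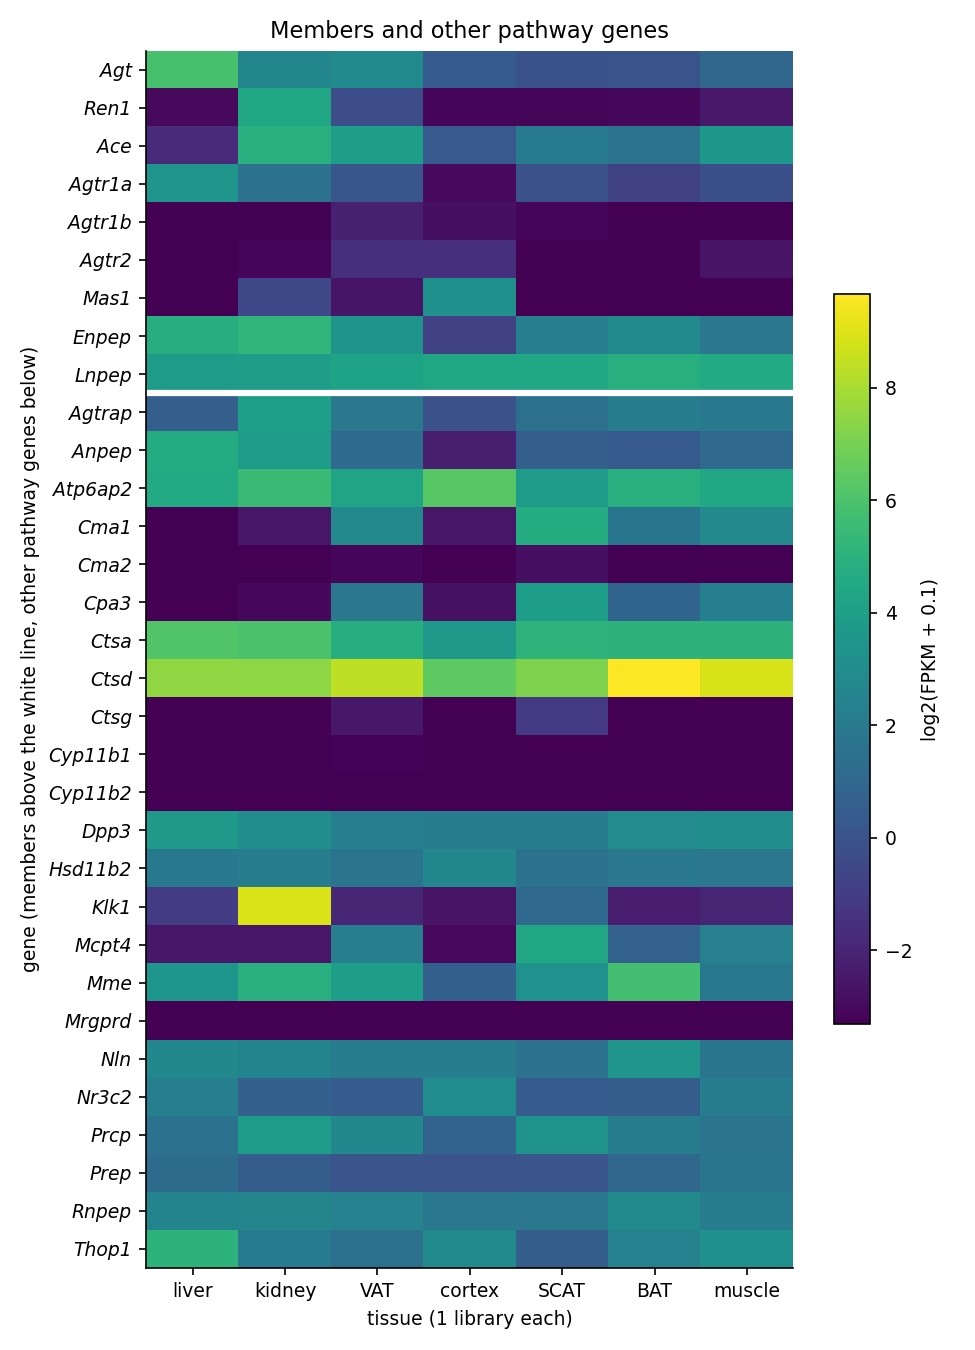
Heat map of log2(FPKM + 0.1) in 7 tissues (columns, 1 library each) for the 9 members (above the white line) and other pathway genes (below). The kidney column is brightest within its row for Klk1 (490.3 FPKM), the SCAT column for Mcpt4 (21.9 FPKM) and Cma1 (25.9 FPKM).

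Most members had more than 1 locus in the table, on opposite strands. The table has no strand column, and strand was read from the order in which loci are listed. The 9 members had 21 loci in all, with several for 8 members and a single one for Agt, and by the selection rule the one with the highest FPKM was used. For Agt, Ren1, Ace, Enpep and Lnpep this was on the annotated strand. For Agtr1a, Agtr1b, Agtr2 and Mas1 it was on the other. Among the 6 members with several loci and at least 1 FPKM, the next locus was on the opposite strand and peaked in the same tissue in all 6. In that tissue the used locus exceeded it 1.35-fold for Agtr1a, 1.39-fold for Enpep, 1.50-fold for Ren1, 2.09-fold for Ace, 2.11-fold for Mas1 and 2.73-fold for Lnpep. Over the whole table, 75.3% of 62043 locus and name combinations lay on the annotated strand. How the library type was set is not given in the sources used here, and whether the pairs are antisense transcripts or 1 set of fragments counted under both strands was not tested. On annotated loci alone, the 3 enriched members were again Agt, Ren1 and Mas1, beside 21.8% of all 16645 named genes then at 1 FPKM or more.

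**Figure D4:**
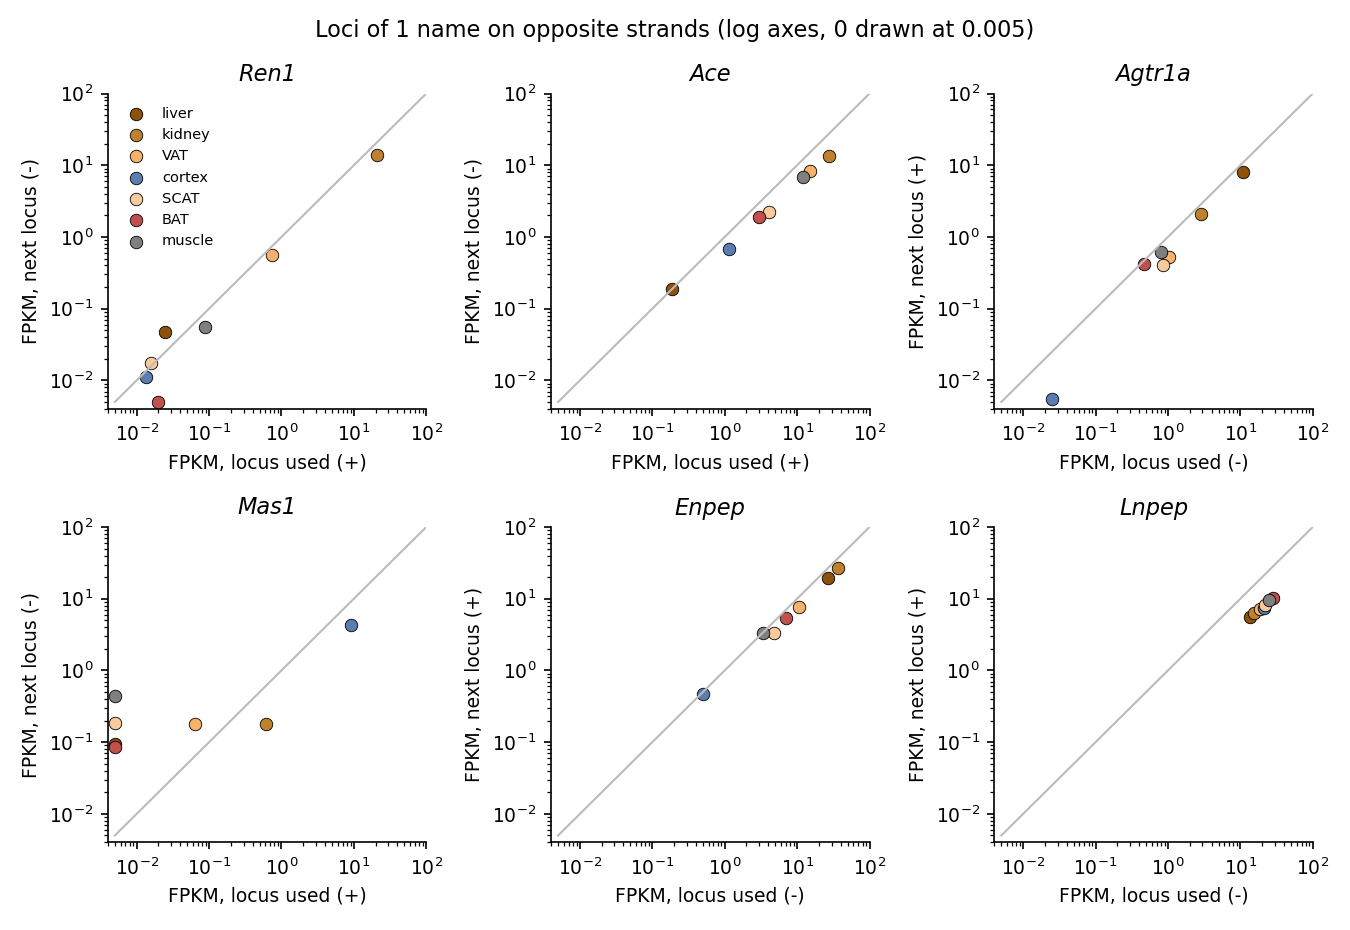
FPKM of the used locus (x) and of the next locus of the same name on the opposite strand (y) in 7 tissues (points, 1 library each) for 6 members, both axes logarithmic, values of 0 drawn at 0.005, grey line for equality. In the highest tissue every member lies below the line, from 1.35-fold (Agtr1a) to 2.73-fold (Lnpep).

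The windows before the members' starts were unlike one another. RefSeq gave 9 windows for 8 members, among 32851 windows in all. TATAAA on the gene's strand within the 50 bases before the start was found in Agt, Ren1 and Agtr1b, with its first base 30, 29 and 31 bases before the start, and in 2.63% of all windows. On the opposite strand it occurred in the first Ace window and in 1.10% of all windows. The ratio of observed to expected CpG over 250 bases was 0 for Agt, 0.0661 for Ren1, 0.157 for Mas1, 0.296 for Agtr1b, 0.340 for Agtr2, 0.352 for Enpep and 0.816 for Lnpep, beside a median of 0.373 over all windows. For Ace it was 0.702 at the first start and 0.0476 at the inner one. The RefSeq starts of Ren1, Agtr2 and Lnpep lie inside the annotated gene, and of the 100 bases before them 100, 80 and 100 are annotated exon, so that these windows are not all upstream of the annotated start. A match or its lack describes these letters only.

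**Figure D5:**
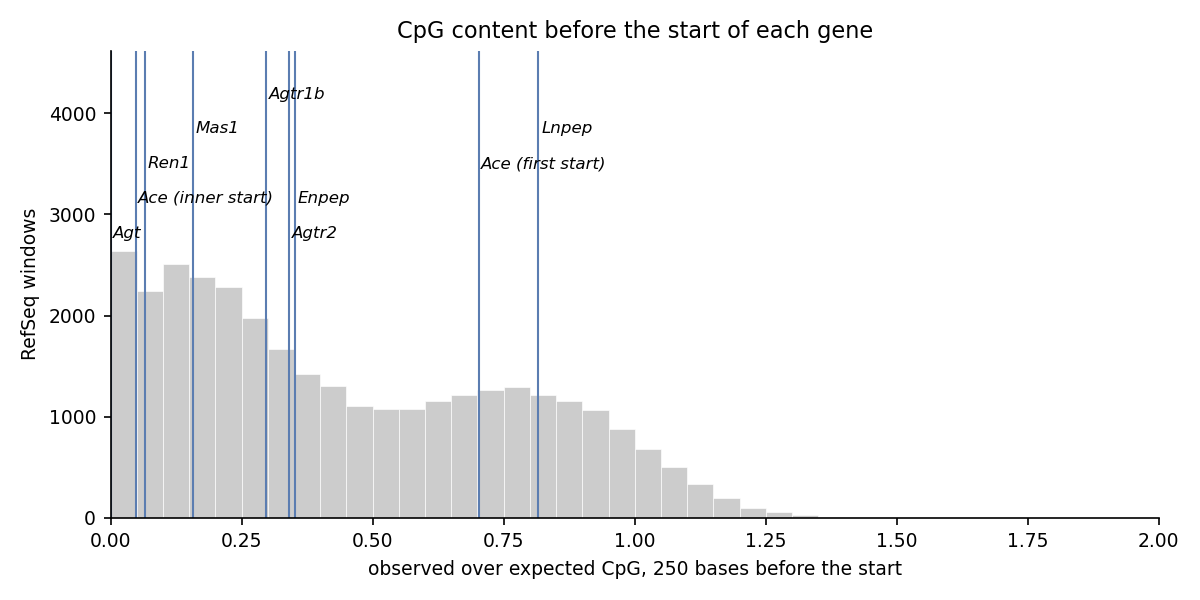
Histogram of the ratio of observed to expected CpG in the 250 bases before the start over 32851 RefSeq windows (grey bars), with the 9 windows of 8 members as blue lines. Agt (0) and Ren1 (0.0661) lie at the left edge, and Lnpep (0.816) is the member farthest to the right.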

How the data were processed

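Total RNA of 7 tissues was depleted of rRNA and made into directional paired-end libraries, 1 per tissue. According to the study's methods and the submitters' processing notes, the authors trimmed reads with flexbar, removed rRNA reads with Bowtie2 2.2.9, aligned the rest to GRCm38 (mm10) with STAR 2.6.0c, and assembled, merged and quantified transcripts with Cufflinks 2.2.1. The deposited FPKM values come from the gene table of Cuffdiff, which lists 94339 loci in 21 comparisons. How Cuffdiff treated strand, and which scaling it used, is not given in the sources used here. The table also holds the authors' log2 fold changes, test statistics, p-values, q-values and calls, which were not used. Without fragment counts the sequencing depth per library is unknown, as is the precision of each value, and intervals cannot be given.

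For this report, loci with the status FAIL (151) were left out, and the 225 zeros marked LOWDATA were taken as missing. A name with several loci took the one with the highest FPKM. The listing order of the loci gave their strand, and 91.9% of names were found in the GENCODE annotation of GRCm38, from which gene positions were taken. Genes were called enriched with at least 1 FPKM and a log2(FPKM + 0.1) at least 2 above each other tissue. Fold changes on this scale understate differences of low genes. No test was possible with 1 library per tissue. The named genes are all 9 members, the other pathway genes and markers, and the 3 genes with the highest Pearson's r to each member, of which 2 genes are not reported here. The members and lists were chosen with earlier results of these data known. Alternatives covered the pseudocount, minimum, threshold, scaling, choice of locus and left-out libraries. The planned comparison of protein sequences was not run. The code of the rule was run on simulated data with genes raised well beyond the threshold, which checks the code and not the calls made here. Python 3.11.15, pandas 2.3.3 and NumPy 2.4.6 were used.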

Additional observations from a re-analysis of the deposited data

Results flagged for a closer look

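Signals outside the main values came from the further loci that carry a member's name, which the levels of the members given above leave out, except where a value is said to be for the annotated strand or the next locus. Of 12 such loci, 10 reached 1 FPKM. In its highest tissue, the further locus of Ren1 had 14.0 FPKM in kidney, that of Ace 13.4 FPKM in kidney and that of Mas1 4.32 FPKM in cortex. Agtr1a had further loci with 8.02 and 2.79 FPKM in liver. Enpep had further loci with 26.8 and 17.2 FPKM in kidney. Lnpep had 3, with 10.3 FPKM in BAT and 4.27 and 2.06 FPKM in SCAT. There are no control samples to set them against, and what the loci are was not tested.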

How the results depend on the processing

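The count of enriched members was recomputed under 14 alternatives, 2 of them (annotated strand only, and without the VAT and SCAT libraries) chosen after seeing the data. It was 3 or 4 in all 14, while the share called of the named genes that each alternative covered ran from 15.0% to 40.3%. The 3 were Agt, Ren1 and Mas1 except without the kidney library, where they were Agt, Agtr1a and Mas1 and no value could be given for Ren1, Ace and Enpep. The threshold of 1 on the log2 scale added Agtr1a, for 4 members beside 40.3% of 19122 named genes. It gave 7 other pathway genes in place of 3. Under the other alternatives the count of other pathway genes was 2 to 4. Mcpt4 was not among them with a pseudocount of 1, a threshold of 3 or without the SCAT library. Of 67 recomputed gaps of single members, 65 kept their direction and their side of the threshold of 2. The exceptions were Agtr1a without the kidney library (3.29) and Lnpep, whose gap of BAT over the highest other tissue was -0.40 with scaling. The gaps ranged from 2.53 to 3.25 for Agt, 3.66 to 6.82 for Ren1, 2.65 to 5.81 for Mas1, 0.45 to 1.23 for Ace and 0.45 to 0.51 for Enpep. No paired analysis was possible because each tissue has 1 library. Depth is unknown, and values under 1 FPKM, Agtr1b and Agtr2 among them, are the least certain.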
